A study of Mus musculus with 3 samples.

Results

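The cells described here were 321 bone marrow cells that held transcripts of secondary granule proteins together with transcripts of dividing cells, and they are called cycling pre-neutrophils below. They were taken from the 1840 bone marrow cells that had 200 or more detected genes and in which mitochondrial UMIs (unique molecular identifiers, each standing for 1 captured transcript) did not exceed 20%, out of 1855 cell barcodes in that library and 9725 in the series. A cell was a member if *Camp*, *Ngp*, *Ltf*, and *Lcn2* together made up 1% or more of its UMIs, *Mki67* and *Top2a* together had at least 3 UMIs, *Elane*, *Mpo*, *Prtn3*, and *Ctsg* together stayed below 1%, and *Csf1r* had 0 or 1 UMI. The members were 17.4% of the passing marrow cells (exact Clopper-Pearson 95% interval, 15.7% to 19.3%) and 33.9% of the 946 granule-positive cells, which met every condition except the one on *Mki67* and *Top2a*. They held 11792621 UMIs, or 23.8% of the UMIs of the marrow library. The members were thus selected on the measured UMIs of these 11 genes, whose levels are given as a description.

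The series holds 3 single-cell libraries, with bone marrow, blood, and the injured tendon giving 1 each, all from mice of 10 weeks of age at day 3 after burn/tenotomy, a dorsal burn combined with a full cut through the Achilles tendon that leads to heterotopic ossification. Per the study's methods the mice were male and C57BL/6J, and no genotype or further treatment separates the 3 libraries. The cells were unsorted, with red cells lysed in the marrow and blood suspensions. How many mice each library pools is not known, and no uninjured marrow was analysed here, so a state of the marrow after injury and its usual state cannot be told apart. With 1 library per site there is no replicate, and cells of 1 library are not replicates, so no comparison below carries a test. All intervals are 95% intervals and cover counting error only.

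Neutrophils form in the marrow from dividing progenitors. At the promyelocyte stage the cells fill azurophil granules with elastase, myeloperoxidase, proteinase 3, and cathepsin G, and at the following myelocyte stage they make specific granules with lactoferrin, cathelicidin, neutrophilic granule protein, and lipocalin 2 while still dividing. The metamyelocyte and band stages no longer divide, make gelatinase granules, and gain the receptors with which mature neutrophils leave the marrow. C/EBP epsilon, encoded by *Cebpe*, is the transcription factor needed for the specific granule genes, and *Mki67* and *Top2a* encode a chromosome surface protein and a DNA topoisomerase of dividing cells.

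The promoters of genes that chose or mark these cells are shown with short motifs in front of the gene start. A C/EBP-like motif (TTGCNNAA, read on both strands) was present within 250 bases before a start in 7 of the 16 genes with a listed promoter among the 18 rule and specific granule genes, against 10.8% of the 27025 genes with a promoter in the RefSeq table (GRCm38.p6). It was found in *Ngp*, *Ltf*, *Lcn2*, and *Fcnb*, and these letters were not in that window of *Camp*. The following stretches are written 5′ to 3′ along the gene's own strand, with the match in capitals.
Ngp: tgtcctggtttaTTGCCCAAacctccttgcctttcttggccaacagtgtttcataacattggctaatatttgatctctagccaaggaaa
Ltf: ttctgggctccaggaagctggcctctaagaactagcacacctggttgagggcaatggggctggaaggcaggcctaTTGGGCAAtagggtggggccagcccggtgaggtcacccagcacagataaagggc
Fcnb: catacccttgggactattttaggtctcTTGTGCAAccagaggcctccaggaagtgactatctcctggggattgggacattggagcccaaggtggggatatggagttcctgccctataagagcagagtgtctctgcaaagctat

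Bases are counted back from the RefSeq start, and GENCODE M21 places some starts further upstream, so no stretch shown runs into the GENCODE gene. The *Ngp* stretch lies on the plus strand at chr9:110419658-110419746, with a match that begins at base 138, and a further match at base 11 lies within the GENCODE gene. The *Ltf* stretch lies on the plus strand at chr9:111019142-111019270, with its match at base 75. The *Fcnb* stretch lies on the minus strand at chr2:28084886-28085028, with a match at base 123, and a further match at base 235 lies outside the stretch shown. The match of *Lcn2* lies within its GENCODE gene, and no stretch is shown for it. A match is a run of letters, not a site shown to be bound, and no match says nothing of the factor.

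A second motif was counted in the same windows. The CHR element (cell cycle genes homology region, TTTGAA, read on both strands) was present in 18 of the 46 G2/M genes with a listed promoter, of 53 on the list, in 5 of the 16 granule genes (31.2%), and in 18.3% of all 27025 genes, so it did not set the G2/M genes apart from the granule genes. For S phase genes only 33 of 47 had a listed promoter, so that count is partial, with the element in 6 of the 33 (18.2%). The CCAAT box (CCAAT, read on both strands, where a match may share bases with a CHR match) was in 35 of the same 46 genes and in 37.5% of all genes. None of these 46 genes had the C/EBP-like motif in this window. *Mki67* and *Top2a*, which chose the cells, and *Cdk1*, the mitotic kinase, each had 2 CHR matches within 250 bases.
Mki67: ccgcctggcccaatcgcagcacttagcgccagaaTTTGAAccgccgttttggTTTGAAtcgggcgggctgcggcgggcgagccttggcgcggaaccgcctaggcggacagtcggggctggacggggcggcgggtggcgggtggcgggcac
Top2a: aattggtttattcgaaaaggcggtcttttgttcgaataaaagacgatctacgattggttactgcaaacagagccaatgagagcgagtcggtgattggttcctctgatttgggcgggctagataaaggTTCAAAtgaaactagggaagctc
Cdk1: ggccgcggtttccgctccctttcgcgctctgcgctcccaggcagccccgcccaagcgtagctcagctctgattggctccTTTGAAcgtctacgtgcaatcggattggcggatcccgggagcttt

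These 3 stretches lie on the minus strand, *Mki67* at chr7:135716380-135716529, *Top2a* at chr11:99024190-99024339, and *Cdk1* at chr10:69352939-69353062. The matches begin 116 and 98 bases before the start of *Mki67*, 23 bases before that of *Top2a* (with another at base 179, outside the stretch), and 71 bases before that of *Cdk1* (with another at base 15, within the GENCODE gene).

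The rule was applied in 4 steps. Of 1840 passing cells, 1041 had the 4 granule genes at 1% or more, 407 of these had at least 3 *Mki67* and *Top2a* UMIs, 81 of the 407 were removed for azurophil transcripts, and 5 more for *Csf1r*. The members sat far from the granule threshold, with a median granule share of 10.7% (range 2.83% to 25.2%), and 4 members with 1% to 4% faced 1 cell with 0.25% to 1% on the other side. The azurophil threshold cut through a continuum, with 29 members at 0.5% to 1% and 34 cells at 1% to 2%, and the median azurophil share of the members was 0.0122%. The *Mki67* and *Top2a* count had a median of 51 UMIs (range 3 to 155), with 22 members at 3 or 4 UMIs and 85 cells outside at 1 or 2.

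**Figure D1:**
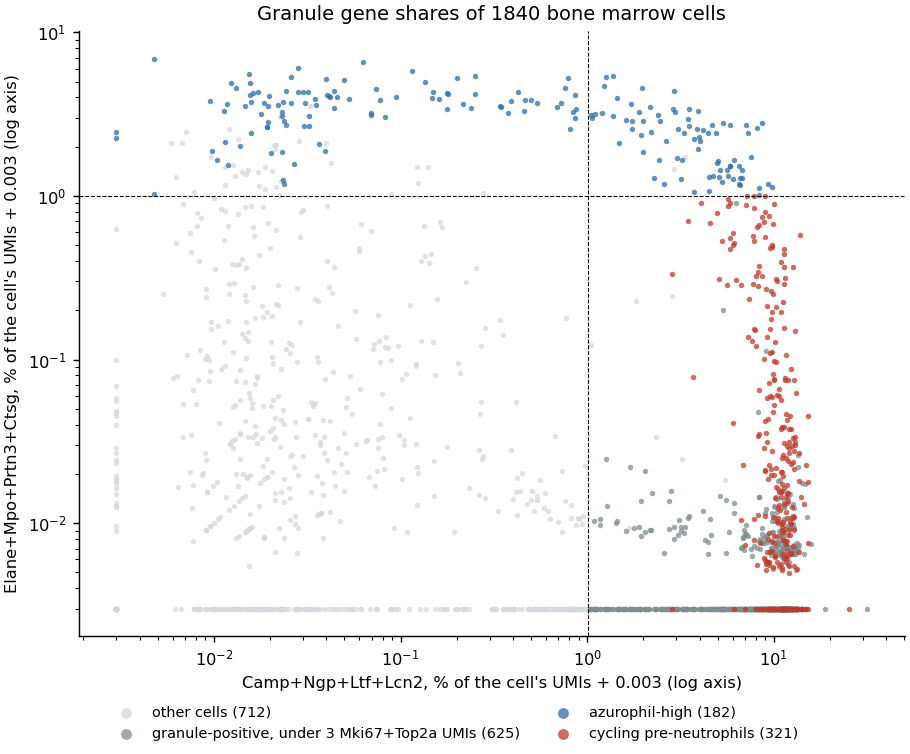
Each point is 1 of 1840 bone marrow cells, with the share of its UMIs from *Camp*, *Ngp*, *Ltf*, and *Lcn2* on the x axis and from *Elane*, *Mpo*, *Prtn3*, and *Ctsg* on the y axis (both in %, log axes after adding 0.003, dashed lines at the 1% thresholds). The 321 cycling pre-neutrophils (red) lie at granule shares of 2.83% to 25.2%, below the 182 azurophil-high cells (blue) on the y axis, and overlap the granule-positive cells with fewer than 3 *Mki67* and *Top2a* UMIs (dark grey).

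All 6 marker genes of the label were present, 4 of them (*Camp*, *Ngp*, *Mki67*, and *Top2a*) through the rule itself, so that *Fcnb* and *Cebpe* were the ones that could go against the label. *Camp*, on chromosome 9 from 109847379 to 109849617 (GRCm38, GENCODE M21), was at 43731 CPM (its UMIs for every 1000000 UMIs summed over the cells), *Ngp* at 36475 CPM, *Fcnb*, on chromosome 2 from 28076378 to 28084885, at 1316 CPM with a UMI in 97.2% of members, and *Cebpe*, on chromosome 14 from 54710360 to 54712174, at 715 CPM with a UMI in 99.7%. *Mki67* had a UMI in 99.7% and *Top2a* in 91.0% of members. For scale, 56 cells of the same library with 10 or more *Cd79a* and *Cd79b* UMIs, which should not make these proteins, had 169 CPM of *Camp*, 456 CPM of *Ngp*, no *Fcnb* UMI, and 1 *Cebpe* UMI. Much of this came from 1 cell with a granule share of 2.21%, and the other 55 cells had 73.1 CPM of *Camp* and 54.8 CPM of *Ngp*. The 56 cells had a median depth of 5804 UMIs against 36977 in the members.

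Transcripts of other cell types were scarce. B cell markers summed to 20 UMIs with 4 of 9 at 0 (*Cd79b* the most abundant), T cell markers to 80 UMIs over 5 genes (*Cd3d*), all 4 NK cell markers were at 0, and monocyte markers summed to 146 UMIs over 9 genes (*F13a1*). These UMIs were uneven over the members. The 107 members lowest in azurophil share held 60 of the 80 T cell UMIs, and the 107 highest held 121 of the 146 monocyte UMIs. Whether a few cells held them was not tested. Macrophage markers reached 19.9 CPM over 6 genes, of which *Vcam1* made up 14.2 CPM, and 8 erythroid markers reached 9.41 CPM with 3 at 0. Stem and progenitor markers summed to 248 UMIs, led by *Kit*, with smaller totals for eosinophil (41 UMIs), dendritic (35), basophil and mast (21), stromal and endothelial (13), and megakaryocyte (11) markers. The members shared no barcode with the blood or tendon libraries. A doublet score put 10 members among the 27 highest-scoring marrow cells, a larger share than the 321 members among all 1840 cells (17.4%). The median score was 0.0234 in members and 0.0357 in the other marrow cells. The automatic threshold of the score called 1 marrow cell and no member, so members were kept and the scores were used as an alternative.

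The members were set against other cells of the same library. The azurophil-high cells, with *Elane*, *Mpo*, *Prtn3*, and *Ctsg* at 1% or more, numbered 182, of which 174 also had at least 3 *Mki67* and *Top2a* UMIs, so this comparison was largely between 2 dividing groups. Non-cycling cells with fewer than 2 *Cxcr2* UMIs numbered 45, several of them shallow, since 495 of the 540 non-cycling granule-positive cells (91.7%) had 2 or more, as did 58.9% of the members. For that reason all 540 granule-positive cells with no *Mki67* or *Top2a* UMI were also used, a choice made after the data had been seen, as were the 127 Cxcr2-positive cells with a granule share below 1% (granule-poor cells). Median depth was 36977 UMIs and 4109 genes per cell in the members, 43359.5 UMIs in azurophil-high, 18798.5 in non-cycling, and 10092 in granule-poor cells.

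In the members, specific granule genes were higher than in azurophil-high cells while ribosome biogenesis and early progenitor genes were lower. The rule split these groups on granule and azurophil transcripts, so the levels of granule and early progenitor genes are a description. Of 6027 genes with a mean of 10 CPM or more, leaving out the rule genes, 415 (6.89%) were at least 2-fold higher and 1729 (28.7%) at least 2-fold lower in the members, 35.6% together, with a median log2 ratio of -0.41. This split depended on scaling, since *S100a8* and *S100a9* took a median of 34.8% of a member's UMIs. With the rule genes and these 2 genes left out of the totals, every log2 ratio moved up by 0.62, and 1197 of the same 6027 genes were higher and 824 lower (1404 and 905, with a median of 0.23, where the level of 10 CPM was applied again to the rescaled values). Values below are scaled to all UMIs. Where the tested genes of a list are counted, the count under the other scaling is given beside it.

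Among the specific granule genes not used by the rule, 9 of 13 tested were higher than in azurophil-high cells and none lower, with a median log2 ratio of 1.94, beside 6.89% of all genes higher (10 and none under the other scaling, beside 19.9%). Members were chosen for a granule share of 1% or more, which 102 of the 182 azurophil-high cells did not reach. Genes that vary with the granule genes of the rule thus differ by the way the groups were chosen, and these counts are a description. *Chil3*, which encodes the chitinase-like protein Ym1, was at 7270 CPM in the members, 1086 CPM in azurophil-high, 2648 CPM in non-cycling, and 244 CPM in granule-poor cells. Members were thus above each of these groups for this gene, with a log2 ratio of 2.74 (2.71 to 2.77) over azurophil-high and 1.46 (1.44 to 1.48) over non-cycling cells. *Cd177*, a neutrophil surface glycoprotein, was at 812 CPM against 101 in azurophil-high cells, *Orm1*, an acute-phase orosomucoid, at 229 against 42.6, and *Itgb2l*, an integrin beta chain, at 222 against 40.1. *Cybb*, the catalytic subunit of the phagocyte NADPH oxidase, was at 1628 CPM against 425 CPM, and was close to its level in non-cycling cells (1688 CPM).

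*Fcnb*, a ficolin stored in neutrophil granules, followed another order. It was at 1085 CPM in azurophil-high cells, 1316 CPM in members, 130 CPM in non-cycling, and 5.33 CPM in granule-poor cells, so it differed little between the dividing groups and by a log2 ratio of 3.34 (3.26 to 3.42) from the members to non-cycling cells. *Cebpe* had the same order, with 435, 715, 274, and 16.7 CPM. Of the azurophil granule genes outside the rule, *Lyz2* (lysozyme) was at 9441 CPM in members and 1501 CPM in azurophil-high cells, and *Srgn*, the proteoglycan serglycin that packs granule proteases, was at 104 CPM against 3839 CPM. Of 10 tested genes of that list 1 was higher and 3 were lower, beside 6.89% and 28.7% of all genes. The counts were the same under the other scaling, beside 19.9% and 13.7% of all genes.

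Transcription factors of granulopoiesis went both ways. Of 23 tested factors, 11 were lower than in azurophil-high cells and 5 higher, with a median log2 ratio of -0.66, beside 28.7% and 6.89% of all genes and a median of -0.41. Under the other scaling 6 were lower and 8 higher, with a median of -0.04, beside 13.7% and 19.9% of all genes and a median of 0.21. *Myc* had 9 UMIs in all members, 0.763 CPM against 34.1 CPM, a log2 ratio of -5.48 (-6.63 to -4.54). *Cebpa*, the factor of early granulocyte commitment, was at 4.58 CPM against 40.6 CPM, *Irf8*, a factor of the monocyte branch, at 1.27 against 29.4, *Myb* at 28.5 against 196, and *Gfi1*, a repressor needed for neutrophil formation, at 22.6 against 48.2. On the other side, *Klf2* was at 74.96 CPM against 10.5 CPM and *Mxd1*, a partner of MAX that opposes MYC, at 155 CPM against 28.3 CPM, and both were higher again in non-cycling cells, at 188 and 559 CPM. Early progenitor genes such as *Ms4a3* (223 CPM against 1558) and *Plac8* (329 against 3218) were lower for 9 of the 10 tested (8 under the other scaling), beside the same shares of all genes lower. The groups were split on azurophil transcripts, so this count too is a description.

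The most extreme genes by ratio were named by a rule of size. Those highest over azurophil-high cells included *St3gal5* (a ganglioside synthase, 124 CPM against 2.13), *Plbd1* (a phospholipase B-like protein, 201 against 3.67), *Fpr2* (a formyl peptide receptor, 86.1 against 2.49), and *Ly6g* (the surface antigen used to sort mouse neutrophils, 234 against 8.17), with *Adam8*, *Acvrl1*, *Stfa2l1*, *Slfn1*, *6430548M08Rik*, and *1700047M11Rik*. Those lowest included *Srm*, spermidine synthase, with 0.933 CPM against 96.6 CPM, a log2 ratio of -6.69 (-7.70 to -5.85). The other 9 had only 1 or 2 UMIs in the members: *Fkbp11*, with 1 UMI against 471, a log2 ratio of -9.36 (-14.67 to -6.88), and *Mettl1*, *Tspan4*, *Bex6*, *Nme4*, *Tfpi*, *Mcpt8*, *Pus7*, and *Smyd2*.

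Genes for making ribosomes and nucleotides were far lower in the members than in azurophil-high cells, although both groups were dividing. The ribosome biogenesis list summed to 504 CPM in members against 4082 CPM, and 21 of its 22 tested genes were at least 2-fold lower with a median log2 ratio of -3.17 (20 and -2.55 under the other scaling), beside 28.7% of all genes lower (13.7%). *Npm1* and *Ncl*, nucleolar proteins, were at 143 and 153 CPM against 1346 and 886 CPM. The cytosolic ribosomal proteins summed to 80213 CPM against 244573 CPM, and 79 of 81 were lower (median -1.61), a count that was 40 of 81 under the other scaling. Nucleotide synthesis genes were lower for 14 of 17 (median -2.45) and higher for none. Under the other scaling 14 were lower and 1 higher (median -1.84). Among the lower were *Dut* (129 CPM against 481) and *Atic* (2.63 against 50.5), while *Tk1*, thymidine kinase 1, was at 64.3 CPM against 76.5 CPM. The nuclear-encoded respiratory chain was lower for 42 of 74 genes, but for 8 of 74 under the other scaling, below the 13.7% of all genes.

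The ribosomal protein genes beside non-cycling cells depended on which of those cells were taken. Of 5161 genes tested against the 540 non-cycling cells, 1311 (25.4%) were at least 2-fold higher and 484 (9.38%) lower, with a median log2 ratio of 0.28. Cytosolic ribosomal proteins were higher for 60 of 80 (47 of 80 under the other scaling), but against the 45 of these cells with fewer than 2 *Cxcr2* UMIs (Cxcr2-low) for 13 of 80 (4 of 80), beside 22.7% (16.9%) of all genes. Against the 540 cells, of 7 tested ribosome biogenesis genes 4 were higher and 1 lower under both scalings, with list sums of 504 CPM against 153 CPM. In summed level of these 2 lists members lay between the azurophil-high and the non-cycling cells. Of the respiratory chain, 26 of 74 genes were higher and none lower, beside 25.4% of all genes higher. Under the other scaling 20 of 74 were higher, beside 22.3% of the same 5161 genes. Against the 45 cells 8 of 74 were higher (2 of 74 under the other scaling), beside 22.7% (16.9%) of all genes. This list summed to 28371 CPM in azurophil-high cells, 13641 CPM in members, and 8352 CPM in non-cycling cells.

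**Figure D2:**
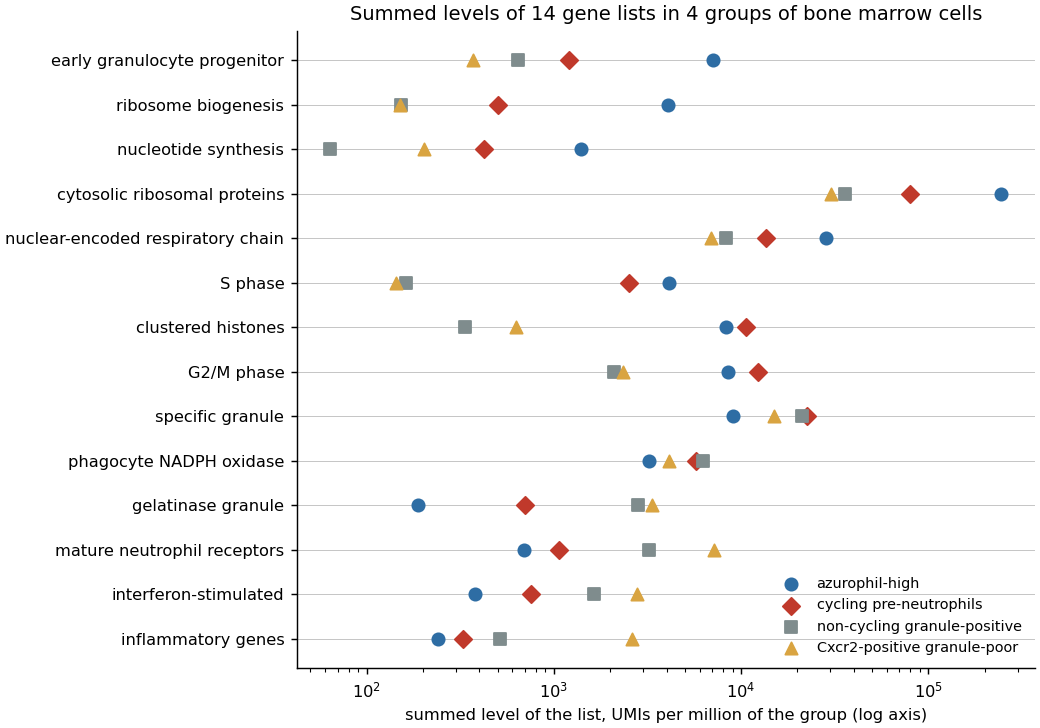
Summed level of 14 gene lists (CPM, log axis) in azurophil-high cells (circles), cycling pre-neutrophils (diamonds), non-cycling granule-positive cells (squares), and Cxcr2-positive granule-poor cells (triangles), 1 value per group with no replicate. The members lie between the azurophil-high and the non-cycling cells for the early progenitor, ribosome, respiratory chain, and receptor lists, and above both for G2/M genes and histones.

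For G2/M and S phase genes, the counts past 2-fold were near those of all genes or depended on the scaling. G2/M genes, which include mitotic kinases, kinesins, and cyclin B, summed to 12380 CPM in members against 8502 CPM in azurophil-high cells, a log2 ratio of 0.54 (0.53 to 0.56), with 3 of 51 tested genes at least 2-fold higher, near the 6.89% of all genes, and none lower. Under the other scaling 32 of 51 were higher, beside 19.9% of the same 6027 genes, and none lower. *Kif23*, a kinesin of cell division, was at 102.6 CPM against 42.0 CPM, *Cenpf*, a centromere protein, at 230 against 104, *Nusap1*, a spindle protein, at 331 against 161, and *Hmgb2*, a chromatin protein, at 5218 against 2909. S phase genes, which encode the replication machinery, summed to 2509 CPM against 4121 CPM, with 17 of 46 at least 2-fold lower, beside 28.7% of all genes, none higher, and a median log2 ratio of -0.73. Under the other scaling 4 of 46 were lower, beside 13.7% of the same 6027 genes, 1 was higher, and the median was -0.11. *Mcm6* (56.0 CPM against 170), *Mcm3* (55.8 against 161), and *Hells*, a DNA helicase, (45.5 against 142) were among the lower, and *E2f8*, an E2F repressor, was at 80.6 CPM against 56.5 CPM.

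Replication-dependent histones, on the list of clustered histone genes, summed to 10609 CPM in members and 8269 CPM in azurophil-high cells, with *Hist1h1b* at 2330 and 2378 CPM. Of 41 tested genes of this list 3 were at least 2-fold higher and 1 lower, beside 6.89% and 28.7% of all genes. Under the other scaling 21 were higher and none lower, beside 19.9% and 13.7%. Most transcripts of these histones lack a poly(A) tail, so their UMIs can understate their level. Among 24 tested regulators of the cycle, 9 were higher and 4 lower, beside 6.89% and 28.7% of all genes. Under the other scaling 15 were higher and 3 lower, beside 19.9% and 13.7%, so the share higher was above that of all genes under both scalings. The D-type cyclin genes went apart, with *Ccnd3* at 327 CPM against 154 CPM and *Ccnd2* at 2.29 CPM against 41.7 CPM. *Cdk4* was at 18.1 CPM against 151 CPM and *Cdk6* at 18.7 against 163, while the INK4 inhibitors of these kinases, *Cdkn2c* and *Cdkn2d*, were at 60.3 and 271 CPM against 17.1 and 99.5 CPM. *Rb1* was at 56.1 CPM against 27.2 CPM.

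**Figure D3:**
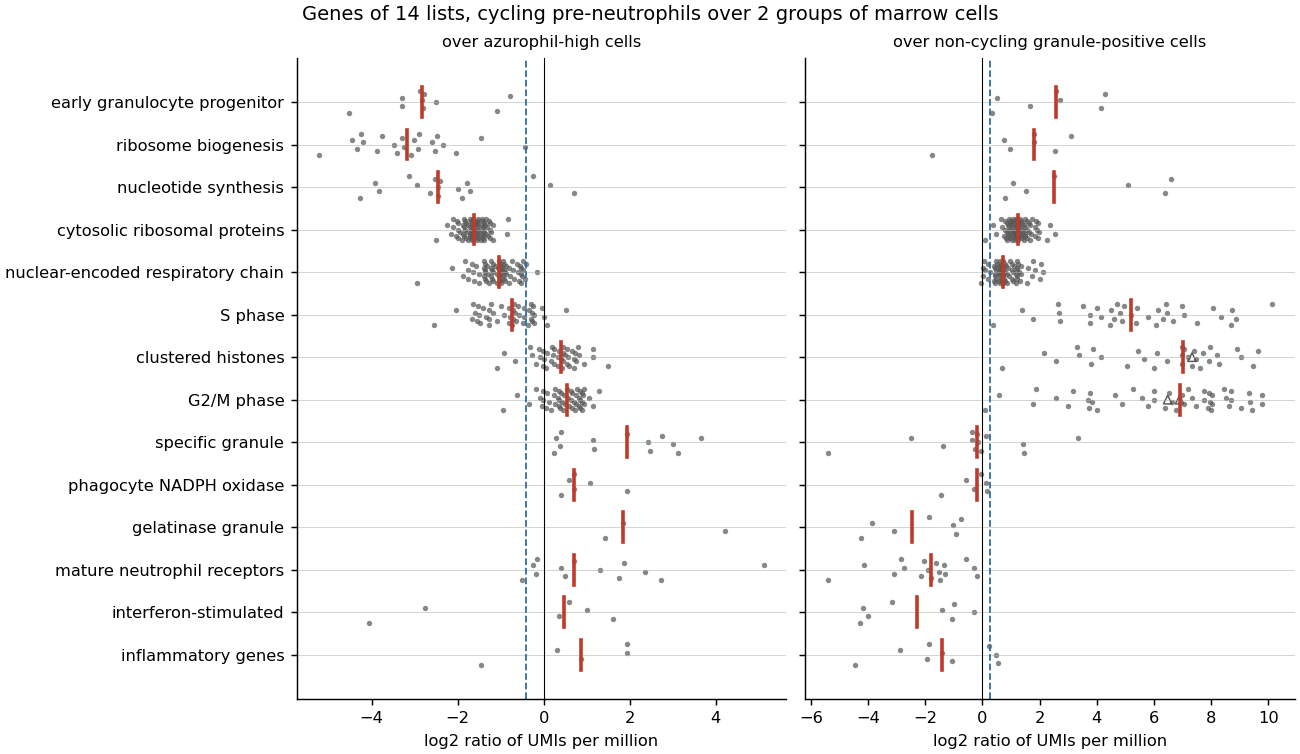
Log2 ratios of CPM in cycling pre-neutrophils over azurophil-high cells (left) and over non-cycling granule-positive cells (right) for the tested genes of 14 lists. Points are genes, open triangles are genes with no UMI in the comparison group drawn at their lower bound, red bars are list medians, and the dashed line is the median of all tested genes (-0.41 and 0.28). Ribosome biogenesis lies furthest to the left on the left panel (median -3.17), while G2/M genes lie right of 0 on both.

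Against non-cycling cells, cycle genes were higher by the way the groups were chosen, and those values are a description. *Rrm2*, a ribonucleotide reductase subunit, was at 217 CPM against 2 UMIs, *Nusap1* at 331 CPM against 5 UMIs, and *Cdk1* at 188 CPM against 3 UMIs, with log2 ratios of 10.15 (8.29 to 13.19), 9.43 (8.21 to 11.06), and 9.35 (7.80 to 11.63). The remaining genes highest by ratio were *Ccnb1*, *Tpx2*, *Hist1h2af*, *Hist1h2bm*, *Spc25*, *Ska1*, and *Ckap2l*. Histones summed to 337 CPM and S phase genes to 161 CPM in the non-cycling cells. The 45 cells with fewer than 2 *Cxcr2* UMIs gave 1164 of 5139 genes higher (22.7%) and 205 lower (3.99%), against 867 and 399 of the same genes under the other scaling and 1302 and 723 with each cell weighted equally. The 10 highest were *Hist1h3c*, *Nusap1*, *Hist1h1b*, *Smc2*, *H2afx*, *Rrm2*, *Cdk1*, *Birc5*, *Hist1h3e*, and *Hist1h2ae*.

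Gelatinase granule genes were lower in members than in non-cycling cells. *Mmp8*, neutrophil collagenase, was at 50.5 CPM in members with a UMI in 17.4% of them, against 2123 CPM in non-cycling and 2900 CPM in granule-poor cells, a log2 ratio of -5.39 (-5.51 to -5.28) to the former. It was at 357 CPM in the 45 cells with fewer than 2 *Cxcr2* UMIs, so the size of this difference followed the choice of comparison cells. *Mmp9*, gelatinase B, was at 109 CPM against 1589 CPM, and 4 of the 6 tested gelatinase granule genes were lower (5 under the other scaling), beside 9.38% (11.5%) of all genes lower. Against the 45 cells 2 of 5 were lower under both scalings, beside 3.99% (7.76%). *Retnlg*, a resistin-like protein of neutrophils, was at 375 CPM against 15711 CPM, *S100a6* at 766 against 7620, and *Ly6g* at 234 against 1048. In the 45 cells *Retnlg* was at 1667 CPM, *S100a6* at 3448, *Ly6g* at 882, and *Mmp9* at 637, so these differences too followed the comparison cells. Others among the lowest by ratio were *Prok2*, *Slc15a3*, *Ifi204*, *Ggt1*, *Stfa2*, and *Clec4d*, with *Aqp9*, a glycerol and water channel, at 0 UMIs in the members and 101 in the non-cycling cells, a log2 ratio of -5.25 or lower with 3 counts over the members as the floor.

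Receptors of mature neutrophils were lower for 14 of 17 tested genes and higher for none against the 540 cells, beside 9.38% of all genes lower, with a median log2 ratio of -1.78 and the same counts under the other scaling. Of these 540 cells 91.7% were Cxcr2-positive, and against the 45 Cxcr2-low cells 2 of 14 were lower and 1 higher (5 lower and 0 higher under the other scaling), beside 3.99% lower of all genes. Those 45 cells were chosen for fewer than 2 *Cxcr2* UMIs and the granule-poor cells for 2 or more. The level of *Cxcr2* in either group is thus a description. *Cxcr2*, the receptor for CXC chemokines that draws neutrophils out of the marrow, was at 78.0 CPM in members, 15.4 CPM in azurophil-high, 523 CPM in non-cycling, and 1699 CPM in granule-poor cells. *Cxcr4*, the receptor that holds them in the marrow, was nearer between groups, at 58.9, 35.3, 82.0, and 82.2 CPM. The receptor for G-CSF, *Csf3r*, was at 47.4 CPM in members, 46.9 CPM in azurophil-high, 157 CPM in non-cycling, and 903 CPM in granule-poor cells. Interferon-stimulated genes were lower than in the 540 cells for 6 of 8 (7 of 8 under the other scaling) and inflammatory genes for 6 of 9 (6 of 9). Against the 45 cells the counts were 0 of 4 (2 of 4) and 1 of 5 (2 of 5), beside 3.99% (7.76%) of all genes. *S100a8* and *S100a9* together took a median of 34.8% of UMIs in members and 41.1% in non-cycling cells. In azurophil-high cells the median was 8.61%, with a lower quartile of 0.594%. *S100a8* was at 166678 CPM in members, 47983 CPM in azurophil-high, and 202845 CPM in non-cycling cells.

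Against the 622 Cxcr2-positive non-cycling cells, of which 495 were also granule-positive, 1340 of 5202 genes (25.8%) were higher and 604 (11.6%) lower, 37.4% together (1247 and 677 of the same genes under the other scaling). The 5 highest by ratio were *Rrm2*, *Hist1h3i*, *Esco2*, *Tpx2*, and *Pbk*, and the 5 lowest *Cd244*, *Il1b*, *Ifi204*, *Gm5150*, and *Irg1*. *Irg1* is the older symbol of *Acod1*, the enzyme that makes itaconate, on chromosome 14 from 103046977 to 103056573. It had 1 UMI in all 321 members against 100 UMIs in the 622 cells, a log2 ratio of -6.74 (-12.06 to -4.23), and 0 UMIs in azurophil-high cells. *Il1b* had 3 UMIs against 313, a log2 ratio of -6.80 (-9.08 to -5.24). Against granule-poor cells, 1623 of 5367 genes (30.2%) were higher and 1183 (22%) lower (1906 and 967 of the same genes under the other scaling), and *Irg1* was at 46.4 CPM there.

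The 85 granule-positive cells with 1 or 2 *Mki67* and *Top2a* UMIs, just outside the threshold, were nearer to the non-cycling cells. They had 362 CPM of *Fcnb*, 403 CPM of *Cebpe*, 933 CPM of *Ly6g*, and 1299 CPM of *Mmp8*, at a median depth of 23752 UMIs. With every cell thinned to 5000 UMIs (1 member and none of these 85 cells were shallower), the median G2/M count was 62 UMIs in members and 11 in the 85 cells, and the median S phase count 11 and 1.

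Some genes varied with azurophil share within the members, and others did not. The members were split into 3 sets of 107 by azurophil share, with medians of 0.268%, 0.0122%, and 0%, a split made after seeing the data on values the rule used, so that the levels are a description. The middle and last sets held 594 and 38 UMIs of the azurophil rule genes, so the border between them rested on few UMIs per cell. Median depth was 39609, 37490, and 32873 UMIs in the 3 sets, on which that border depends too. From the first to the last set *Fcnb* went from 2147 to 1011 to 624 CPM, *Ms4a3* from 425 to 141 to 63.3 CPM, and *Srgn* from 263 to 12.4 to 7.91 CPM. In the same order *Ly6g* went from 57.2 to 236 to 449 CPM, *Mmp9* from 21.5 to 138 to 185 CPM, and *Plbd1* from 41.6 to 253 to 342 CPM. Genes lower in the last set also included *Mt1*, *Gstm1*, *Nkg7*, *Igfbp4*, *Prss57*, *Rps2*, *Ssr4*, and *Hells*, and genes higher *St3gal5*, *Fpr2*, *Slfn1*, AA467197, *Sh3glb1*, *Slfn4*, and *S100a6*. Over lists, early progenitor genes summed to 1872, 928, and 703 CPM and cytosolic ribosomal proteins to 115168, 64289, and 54484 CPM. Azurophil granule genes outside the rule were lowest in the first set, at 9475, 11078, and 10627 CPM, and granulopoiesis factors were near level, at 2257, 2341, and 2313 CPM. *Cebpe* (710, 734, and 701 CPM) and *Camp* differed little, and *Ltf*, one of the rule genes, was at 3468, 8774, and 9231 CPM. The sets had similar median *Mki67* and *Top2a* counts of 50, 48, and 52 UMIs.

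Transcripts of the 2 cycle phases were uneven across members. After thinning to 5000 UMIs, S phase UMIs per member had a median of 11 (quartiles 4 and 18) and G2/M UMIs a median of 62 (39.75 and 78), against 20 and 39 in azurophil-high and 1 and 10 in non-cycling cells. The 5000 UMIs include *S100a8* and *S100a9*, with median shares of 34.8% in members and 8.61% in azurophil-high cells at full depth. These counts thus depend on scaling to all UMIs. Over 320 members, which share 1 library, the Spearman correlation was -0.14 between the 2 counts, 0.37 between azurophil share and S phase count, and -0.12 between azurophil share and G2/M count. The rule kept azurophil share below 1%, so the correlations with it are a description. The members were also split by unthinned *Mki67* and *Top2a* count, which the rule used, so that the levels are a description. The 43 members with 3 to 9 UMIs had 830 CPM of S phase and 5520 CPM of G2/M genes and 1192 CPM of histones. For the 113 with 10 to 49 these were 3024, 10040, and 7143 CPM, and for the 165 with 50 or more 2477, 14717, and 13957 CPM. The 43 members with the fewest were also the highest in *Mmp9* (324 CPM against 71.8 CPM in the 165) and *Ly6g* (412 against 218), at a lower median depth of 24549 UMIs against 40382.

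**Figure D4:**
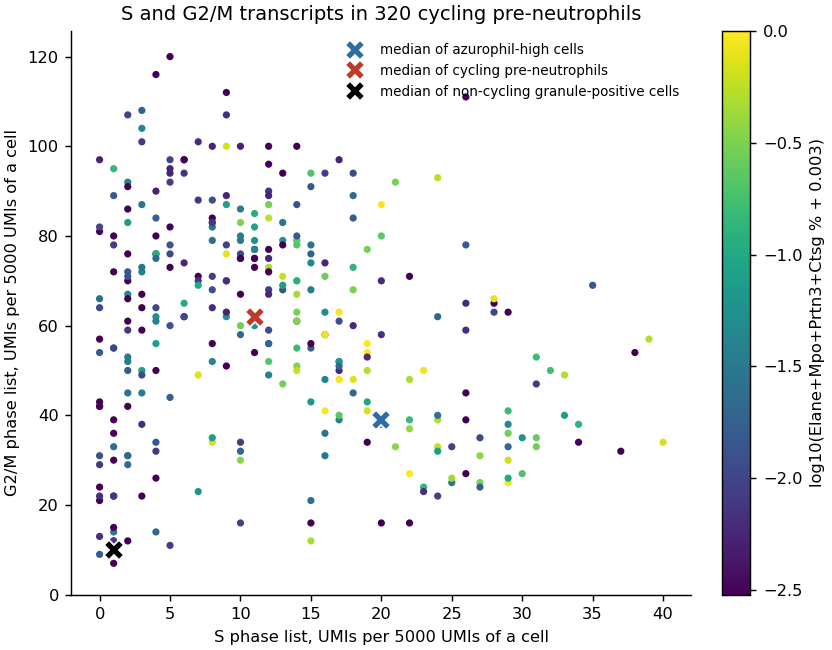
Each point is 1 of 320 cycling pre-neutrophils thinned to 5000 UMIs, with UMIs of the S phase list on the x axis, UMIs of the G2/M list on the y axis, and colour for the azurophil share of its UMIs at full depth (log10 of % plus 0.003). Crosses are group medians, at 11 and 62 UMIs for the members, 20 and 39 for azurophil-high cells, and 1 and 10 for non-cycling cells. The counts are out of all UMIs, *S100a8* and *S100a9* included, and depend on that scaling.

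The share of cells with at least 3 *Mki67* and *Top2a* UMIs differed by granule content of the marrow cells. At each cell's own depth it was 93.1% of 102 azurophil-high cells with a granule share below 1%, 98.8% of 80 azurophil-high cells above it, 96.2% of 79 granule-positive cells with 0.1% to 1% azurophil transcripts, 49.1% of 350 with less than 0.1%, and 14.1% of 517 with none. Of 130 cells with granule shares below 1% and *S100a8* and *S100a9* at 1% or more, 0 were cycling (interval up to 2.80%). With all cells brought to 5000 UMIs, without the 1, 0, 2, 0, 17, and 3 shallower cells of these bins, the shares were 48.5% (38.4% to 58.7%), 68.8% (57.4% to 78.7%), 77.9% (67.0% to 86.6%), 38.6% (33.4% to 43.9%), 10% (7.51% to 12.97%), and 0%. With the *Mki67* and *Top2a* counts at equal depth, the bin with 0.1% to 1% azurophil transcripts had the highest share. Its interval overlapped that of the azurophil-high cells above 1% granule share. The bins themselves were set at full depth, so they still depend on it. Median depth was 39371 UMIs in that bin, 28573.5 with less than 0.1%, and 19617 with none. The share counts *Mki67* and *Top2a*, which the rule used, and is a description. Over all granule-positive cells the share was 33.9% at own depth and 26.4% after thinning, with 19 cells left out.

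**Figure D5:**
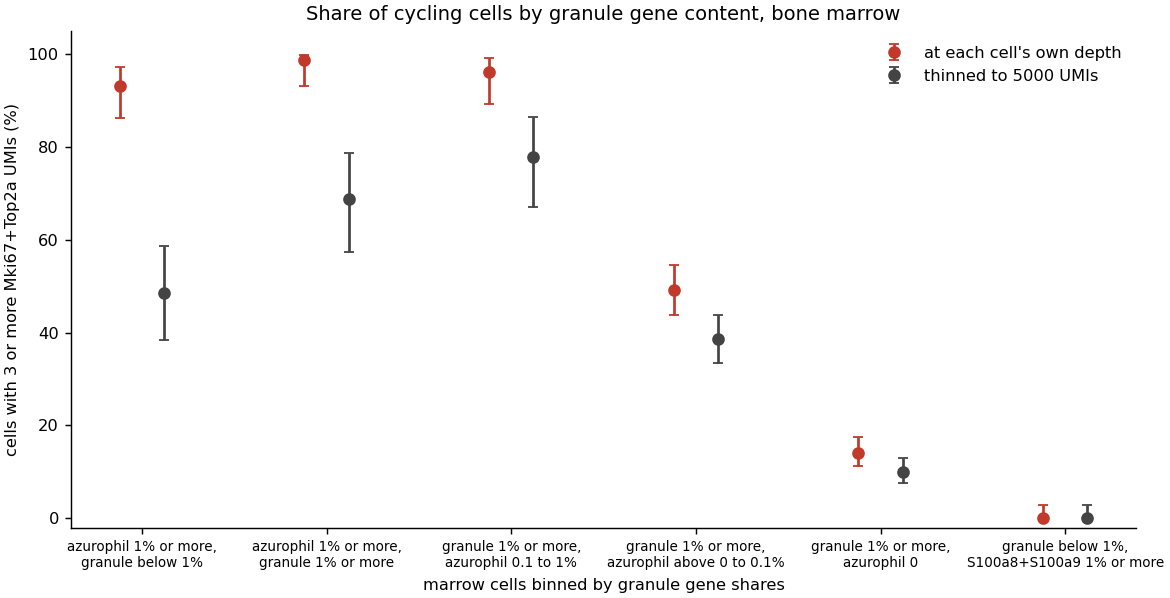
Share of bone marrow cells with 3 or more *Mki67* and *Top2a* UMIs (%, y axis) in 6 bins by azurophil and granule gene share (x axis), at each cell's own depth (red) and after thinning to 5000 UMIs (dark grey). Points are shares of cells of 1 library and bars are exact 95% intervals for counting error. The thinned share is 77.9% in granule-positive cells with 0.1% to 1% azurophil transcripts and 10% in those with none.

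Cells that met the same rule were rare outside the marrow. There were 2 among 2184 passing blood cells (0.0916%, 0.0111% to 0.330%) and 5 among 4978 passing cells of the tendon injury site (0.1004%, 0.0326% to 0.234%), with none among the highest doublet scores. Their median doublet scores were above those of the other cells, at 0.0987 against 0.0264 in blood and 0.0923 against 0.0391 at the tendon site. The 2 blood cells together held 740 CPM of *Fcnb* and 716 CPM of *Cebpe*, and the 5 tendon cells 775 and 465 CPM. Neither held *Col1a1*, *Cd3e*, or *Irg1* UMIs, over 83810 and 122507 UMIs. Of granule-positive cells, 2 of 56 in blood and 5 of 25 at the tendon site met the cycling condition, which are too few cells to set against the 33.9% of the marrow. Blood was taken through a density gradient that keeps mononucleated cells, and that step bears on which neutrophils the blood library holds.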

How the data were processed

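For 3 unsorted single-cell libraries the authors deposited raw UMI counts by gene and by cell, written by Cell Ranger 5.0.1 according to the file headers, with mm10 as the genome build in the submitters' processing notes. The counts were used as deposited. The annotation release and the number of mice per library are not stated in the sources that were read. The marrow library held 49580625 UMIs (median 22836 per barcode), the blood library 22542581, and the tendon library 90621052.

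Cells were grouped by the thresholds stated with the results, and counts were summed per group, since each site has 1 library and cells are not replicates. Intervals are exact Poisson for a level, from the exact binomial split for a ratio, and Clopper-Pearson for a share (scipy 1.17.1, numpy 2.4.6, and Python 3.11.15). Only the ratio interval was tested on simulated data, with Poisson sums of known ratio and no spread between cells. Genes with a mean of 10 CPM or more in a pair of groups were compared, leaving out the rule genes, and 2-fold was the size used. The genes named were those of the label, Irg1, list members with the most UMIs or the largest ratios, and the 10 genes each way (5 for Cxcr2-positive cells) with the largest ratios among genes with 100 or more UMIs and a UMI in 10% of the cells of the higher group. Within the members the 10 genes each way had 500 or more UMIs. A few further list genes were named after their values were seen. Of the genes that met the rule, 1 is not reported here. Scrublet (scanpy 1.11.5) scored doublets with its default settings. The number of highest-scoring cells taken per library was set by an assumed 0.8% per 1000 cells. The members, lists, and comparisons were chosen with earlier results of these data known. Chi3l1, Cebpd, and Mx2 were not analysed here. Gene positions came from GENCODE M21 and promoters from RefSeq (GRCm38.p6), matched by symbol. Alternatives covered cell filters, each threshold, scaling, cell weighting, expression floor, fold, thinning depth, and 2 added groups of comparison cells. No cluster annotation was used.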

Additional observations from a re-analysis of the deposited data

How the results depend on the processing

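The number of members (321) stayed within 1.5 times of its value under every alternative tried, and their share of marrow cells was 19.3% with azurophil transcripts allowed up to 2% and 13.7% after thinning to 5000 UMIs. A 1.5-fold size in place of 2-fold gave 3474 genes for azurophil-high cells, 2465 for the 45 Cxcr2-low cells, and 2979 for Cxcr2-positive cells, against 2144, 1369, and 1944. For the Cxcr2-low cells, weighting cells equally gave 2252 genes where the level of 10 CPM was applied again to the reweighted values, which changes the genes tested too. Over the same 5139 genes it gave 1302 higher and 723 lower, against 1164 and 205, for which the cause was not tested. A mean of 20 CPM, which tests fewer genes, gave 828. Leaving the rule genes, S100a8, and S100a9 out of the totals changed the split over the same genes to 867 higher and 399 lower, with the median log2 ratio going from 0.30 to 0.04. It gave 1151 higher and 596 lower against all non-cycling cells, from 1311 and 484 (median 0.14 from 0.28), and 1906 higher and 967 lower against granule-poor cells, from 1623 and 1183 (median 0.41 from 0.16). The cycling share of granule-positive cells, 26.4% at 5000 UMIs, was 14.1% at 2000 UMIs, 32.1% at 10000 UMIs, and 29.9% with 2 or more UMIs. Over 23 genes followed through all alternatives, 651 of 859 log2 ratios stayed within the counting interval of the reported value, 207 moved outside it, and 1 past 2-fold reversed, Cxcr2 against non-cycling cells, from 1.03 to -2.75 once cells were no longer picked for low Cxcr2. No paired analysis was possible because each group of samples is 1 library and no result comes from a test. The analysis is limited to 1 marrow library, so variation between mice is unknown, depth differs between cell groups, and low genes such as Irg1 rest on single UMIs.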
